A study of Mus musculus with 3 samples.

Results

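Cd209a dendritic cells of the mouse lacrimal gland (LG) were taken as cells that carried a transcript of *Cd209a*, a C-type lectin of the DC-SIGN family, together with transcripts of the major histocompatibility complex (MHC) class II genes. A cell was chosen by its unique molecular identifier (UMI) counts: at least 1 UMI of *Cd209a*, at least 5 UMIs of *H2-Aa*, *H2-Ab1*, *H2-Eb1* and *Cd74* together, at most 1 UMI of *Fscn1* and *Ccr7* together, at most 2 UMIs of *Mrc1*, *Pf4*, *F13a1* and *Cd163* together, and 0 UMIs of *Epcam*, *Col1a1* and *Cd3e*. These limits were set to leave out migratory dendritic cells, resident macrophages, epithelial cells, fibroblasts and T cells. They left 126 cells of the 19592 kept in the whole series, of which 34 came from the female library, 54 from male library 1 and 38 from male library 2. Values for the 3 libraries are given in this order throughout. Because measured counts chose the cells, the levels of those genes are given here as a description, and no test is made on them.

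The series holds 3 single-cell libraries of dissociated LG (10x Genomics), each from 6 glands of 3 C57BL/6J mice aged 2 months, with no genetic change and no treatment. There was 1 female library and there were 2 male libraries, so a library is a pool of animals and not an animal, and no test of sex was possible. The female library also differs from the male ones in sequencing core and date, which therefore cannot be told apart from sex. Kept barcodes had more than 500 UMIs, more than 200 genes and under 15% mitochondrial UMIs. There were 8298, 5582 and 5712 of them, holding 60331289, 39455793 and 43337901 UMIs. *Xist*, the X-inactivation RNA, had 154 UMIs in the female Cd209a dendritic cells and 0 in those of both male libraries. Pairs of libraries shared 11 to 17 kept barcodes, and 0 of these were Cd209a dendritic cells.

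Dendritic cells take up antigen in tissues, load its peptides on MHC class II molecules and show them to T cells. Conventional dendritic cells are commonly divided into a type that cross-presents antigen to CD8 T cells and depends on *Irf8* and *Batf3* (type 1), and a type that mainly serves CD4 T cells and depends on *Irf4*, *Klf4* and *Zeb2* (type 2). *Cd209a* is used in the mouse to mark type 2 cells and monocyte-derived dendritic cells. On activation, dendritic cells switch on *Ccr7* and *Fscn1* and leave the tissue for the lymph node. In an exocrine gland such as the LG they lie beside many resident macrophages, which carry complement C1q genes and also hold MHC class II.

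*Cd209a* belongs to a cluster of related lectin genes on mouse chromosome 8. In GRCm38, *Cd209a* lies on the minus strand at chr8:3743397-3748984, *Cd209d* on the minus strand at chr8:3871824-3878555, *Cd209f* on the minus strand at chr8:4102787-4105835 and *Cd209g* on the plus strand at chr8:4134098-4137707. The promoter windows of these 4 genes are shown because they are the family members with more than 3 UMIs in the kept cells, and because *Cd209a* and *Cd209d* had UMIs in the chosen cells while *Cd209f* and *Cd209g* had 0 there. Each window runs from 250 bases before to 50 bases after the RefSeq start (GRCm38.p6, 5′ to 3′ on the gene's strand). That start is at the edge of the interval given above for *Cd209a* and inside the interval for *Cd209d*, *Cd209f* and *Cd209g*. The whole *Cd209g* window lies within its interval. Capitals mark GAGGAA on either strand, a core of the sites of PU.1, the myeloid ETS factor.
Cd209a, chr8:3748935-3749234, minus strand: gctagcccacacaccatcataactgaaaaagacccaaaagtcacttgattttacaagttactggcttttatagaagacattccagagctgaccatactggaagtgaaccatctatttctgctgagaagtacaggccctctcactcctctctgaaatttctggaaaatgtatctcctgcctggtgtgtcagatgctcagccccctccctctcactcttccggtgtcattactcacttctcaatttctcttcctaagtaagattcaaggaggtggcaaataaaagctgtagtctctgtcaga
Cd209d, chr8:3878450-3878749, minus strand: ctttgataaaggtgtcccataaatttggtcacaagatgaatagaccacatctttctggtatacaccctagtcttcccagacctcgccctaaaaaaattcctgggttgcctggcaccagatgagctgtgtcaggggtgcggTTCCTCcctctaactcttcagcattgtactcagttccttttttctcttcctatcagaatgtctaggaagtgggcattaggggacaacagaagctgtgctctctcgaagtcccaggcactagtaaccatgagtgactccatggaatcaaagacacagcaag
Cd209f, chr8:4105715-4106014, minus strand: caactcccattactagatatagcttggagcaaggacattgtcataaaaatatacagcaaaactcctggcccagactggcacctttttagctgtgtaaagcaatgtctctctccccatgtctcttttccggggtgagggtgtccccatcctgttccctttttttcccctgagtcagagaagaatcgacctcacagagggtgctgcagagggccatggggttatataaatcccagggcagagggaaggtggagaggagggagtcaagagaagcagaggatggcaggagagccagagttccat
Cd209g, chr8:4134486-4134785, plus strand: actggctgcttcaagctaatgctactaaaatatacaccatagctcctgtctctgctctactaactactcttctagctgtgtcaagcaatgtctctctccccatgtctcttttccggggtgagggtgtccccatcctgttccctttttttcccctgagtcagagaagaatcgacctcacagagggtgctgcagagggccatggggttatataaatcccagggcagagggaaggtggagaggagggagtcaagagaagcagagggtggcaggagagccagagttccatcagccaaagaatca

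GAGGAA was present once, on the opposite strand, in the *Cd209d* window, and these letters were not in the other 3 windows. It was present in 28.3% of the 32851 RefSeq promoter windows of that length. The core of the interferon-stimulated response element was searched on both strands as well and is in 3.44% of all windows and in 0 of these 4. The *Cd209f* and *Cd209g* windows were alike (81.2% identical over their alignment), whereas the *Cd209a* window had 45.0%, 47.1% and 47.0% identity with those of *Cd209d*, *Cd209f* and *Cd209g* by global alignment.

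The UMIs of the 4 genes followed 2 patterns, *Cd209a* and *Cd209d* being found in the chosen cells, and *Cd209f* and *Cd209g* in C1q macrophages. *Cd209a* had 107, 84 and 60 UMIs in the chosen cells, of 157, 96 and 70 UMIs in all kept cells. *Cd209d* had 15, 2 and 2 UMIs in the chosen cells, in 9 cells, of 39 UMIs in all kept cells, and 0 UMIs in C1q macrophages, which are described further on. *Cd209f* and *Cd209g* had 0 UMIs in the chosen cells and 20 of 30 and 22 of 29 UMIs in C1q macrophages. *Cd209b* had 1 UMI in the chosen cells of 3 in all, and *Cd209c* and *Cd209e* had 0 UMIs in every kept cell. The genes of this family are near copies of each other, so reads could be given to the wrong copy, and the split between them is uncertain to that degree.

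*Cd209a* UMIs were confined to few cells. A *Cd209a* UMI was found in 50, 64 and 46 kept cells, or 160 in all. Of these 160 cells, 18 had *Epcam* (11, 5 and 2) and 12 fell under the limit of MHC class II UMIs (3, 3 and 6). A further limit was failed by 9 cells with too many *Fscn1* and *Ccr7* UMIs, 1 with too many of resident macrophage genes and 1 with *Col1a1*, some failing more than 1 limit. Female cells outside the rule had up to 12 *Cd209a* UMIs, in a cell with 159 MHC class II UMIs. In cells gated by markers of other kinds, the shares were low: 7 of 1156, 1 of 615 and 0 of 496 *Epcam* epithelial cells, and 0 of 1764, 0 of 748 and 0 of 504 fibroblasts. For fibroblasts, 0 allows a share of up to 0.170%, 0.401% and 0.595% of cells with a UMI, not of cells that express the gene. The *Epcam* gate set no limit on MHC class II UMIs, and whether cells with both *Epcam* and *Cd209a* were epithelial was not tested. Droplets outside the cell set with 10 to 100 UMIs, which carry the free RNA of the suspension, held 0 *Cd209a* UMIs among 67990, 231705 and 172853 UMIs. Intervals and limits here cover counting error only.

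**Figure D1:**
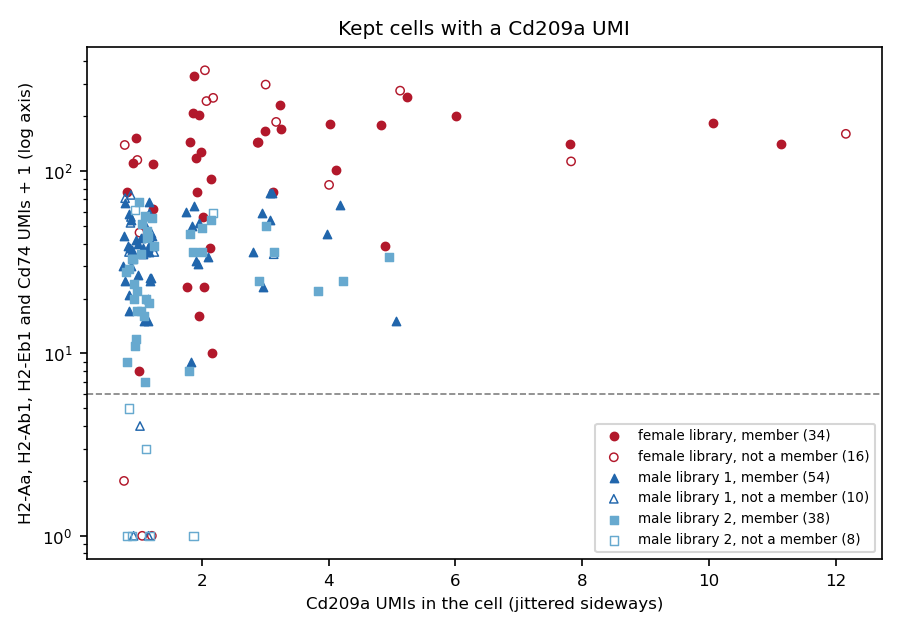
Each point is a kept cell with a *Cd209a* UMI, with its *Cd209a* UMIs across and its summed UMIs of *H2-Aa*, *H2-Ab1*, *H2-Eb1* and *Cd74* plus 1 upward on a log axis; filled points are the 126 chosen cells, open points the others, and the dashed line the limit of 5 UMIs. Most chosen cells lie far above the line, and 69 of them have 1 *Cd209a* UMI.

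The chosen cells were shallow for *Cd209a* itself. A single *Cd209a* UMI was found in 6 of 34, 37 of 54 and 26 of 38 cells, and the highest counts in a cell were 11, 5 and 5. The female cells were deeper, with a median of 4048 UMIs and 1176 genes against 1792 UMIs and 480 genes in male library 1 and 1476 UMIs and 431 genes in male library 2. The summed MHC class II UMIs had medians of 122, 38 and 32, with lowest values of 7, 8 and 6 and highest values of 332, 75 and 67. Just inside that limit, 6 cells in all had 5 to 9 UMIs. At the limit of *Fscn1* and *Ccr7*, 1, 10 and 6 cells had 1 UMI, and 2 cells with 2 UMIs lay just outside.

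Cells that met the rule but for *Cd209a* were counted if they had at most 1 C1q UMI and no UMI of *Cd79a* or *Ms4a1*. Monocytes and *Xcr1* or *Clec9a* cells, described further on, were left out. The cells that remained were more numerous than the chosen cells: 145, 161 and 179 cells. At this depth a cell without a *Cd209a* UMI need not lack the transcript. *S100a4*, a calcium-binding protein gene that was named with the cell type but not used by the rule, had on average 967 CPM in those cells against 1855 in the chosen cells. Levels here and below are given as CPM, the UMIs of a gene per 1000000 UMIs outside the genes of secreted tear products, because those transcripts made up 35.6%, 47.6% and 53.1% of the UMIs of the chosen cells and, in the barcodes that were not cells, 72.8% to 79.7%. As shares of kept cells, the chosen cells came to 0.410%, 0.967% and 0.665%, with exact 95% binomial intervals of 0.284% to 0.572%, 0.728% to 1.26% and 0.471% to 0.912%. With at least 2 *Cd209a* UMIs asked of a cell, they were 0.337%, 0.305% and 0.210%, so that the female share went from the lowest to the highest. With 1 female library these shares are values only, and no order of the libraries is read from them.

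The label was checked with genes that the rule did not use. *S100a4* was found in 31 of 34, 44 of 54 and 25 of 38 chosen cells. Of the genes held to define conventional dendritic cells, *Flt3*, the receptor of the growth factor that forms them, was found in 8, 0 and 0 cells (23.5%, 0% and 0%, or 11.8%, 0% and 0% of cells thinned to 500 UMIs), and *Zbtb46*, their zinc-finger factor, in 3, 0 and 2 cells. *Napsa*, an aspartic protease gene listed with them, was found in 24, 20 and 12 cells. The type 1 receptor genes *Xcr1* and *Clec9a* had a UMI in 2 female cells, both without *Xcr1*. Of monocyte and macrophage markers, *Fcgr1*, the high-affinity Fc receptor gene, was found in 1 cell of each library, *Ly6c2* in 3, 2 and 3 cells, and *Ccr2*, the receptor for entry from blood, in 20, 8 and 8 cells. The chosen cells thus held *S100a4* widely and *Napsa* in 70.6%, 37.0% and 31.6% of cells, while *Flt3* was seen in female chosen cells alone. Monocytes, described further on, had *Flt3* in 20%, 0% and 0% of cells, *Napsa* in 40%, 25.9% and 16.1% and *S100a4* in 60%, 66.7% and 61.3%. Neither *Napsa* nor *S100a4* passed the test against monocytes, so these genes did not tell the chosen cells from monocytes.

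Traces of other cells were counted in the chosen cells. C1q genes had more than 1 UMI in 2 female cells and in 1 cell of male library 2, which together held 113 UMIs of them, and had 0 UMIs in the other chosen cells. The largest female barcode had 30222 UMIs, 16.8% of all UMIs of the female chosen cells, of which 78.7% were of tear products, and its doublet score was among those left out as doublets in an alternative that removed 3, 0 and 2 of the chosen cells. T cell and innate lymphoid markers (10 genes) included 1 gene with a UMI, B and plasma cell markers (6 genes) 3, mast cell and granulocyte markers (10 genes) 1, fibroblast markers (7 genes) 3 and endothelial markers (6 genes) 4, with *Cd3d*, *Nkg7* and *Cd79a* at 0. Of the fibroblast markers, *Sparc* had 0, 0 and 0 UMIs in the chosen cells and 92, 20 and 20 in the C1q macrophages described further on, and *Dcn* 1, 1 and 0 against 114, 23 and 65, and both were called lower than in those macrophages (adjusted p = 0.0218 and 0.038, edgeR). The part of other cells in the results was not tested beyond the alternatives given.

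To describe the cells, UMIs were summed per library and compared within each library with those of 3 kinds of cells without a UMI of *Cd209a*, *Epcam*, *Col1a1* or *Cd3e*. C1q macrophages (1399, 606 and 535 cells) had at least 5 MHC class II UMIs, at least 3 C1q UMIs and at most 1 UMI of *Fscn1* and *Ccr7*. Monocytes (10, 27 and 31 cells) had at least 2 UMIs of *Plac8*, *Ly6c2* and *Clec4e* together and 2 of *Lyz2*. They also had at most 1 C1q UMI, at most 1 UMI of *Fscn1* and *Ccr7*, and none of the markers of other cells listed for the gate. MHC class II was not asked of them. Migratory dendritic cells (17, 5 and 9 cells) had at least 5 MHC class II UMIs, *Fscn1* and at least 3 UMIs of *Fscn1* and *Ccr7* together. They also had at most 1 C1q UMI, whereas the rule for the chosen cells set no C1q limit. The tests were made with the quasi-likelihood test of edgeR with the library as a block, and genes used to choose either kind of cell were left out. A gene was called at an adjusted p under 0.05. Log2 fold changes are for Cd209a dendritic cells over the other cells and are given ± a standard error. That error was worked out as the absolute log2 fold change divided by the square root of the F statistic of the test. The replicates are 3 pools, and fewer transcripts per cell and a different mixture of cells within a sum cannot be told apart.

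**Figure D2:**
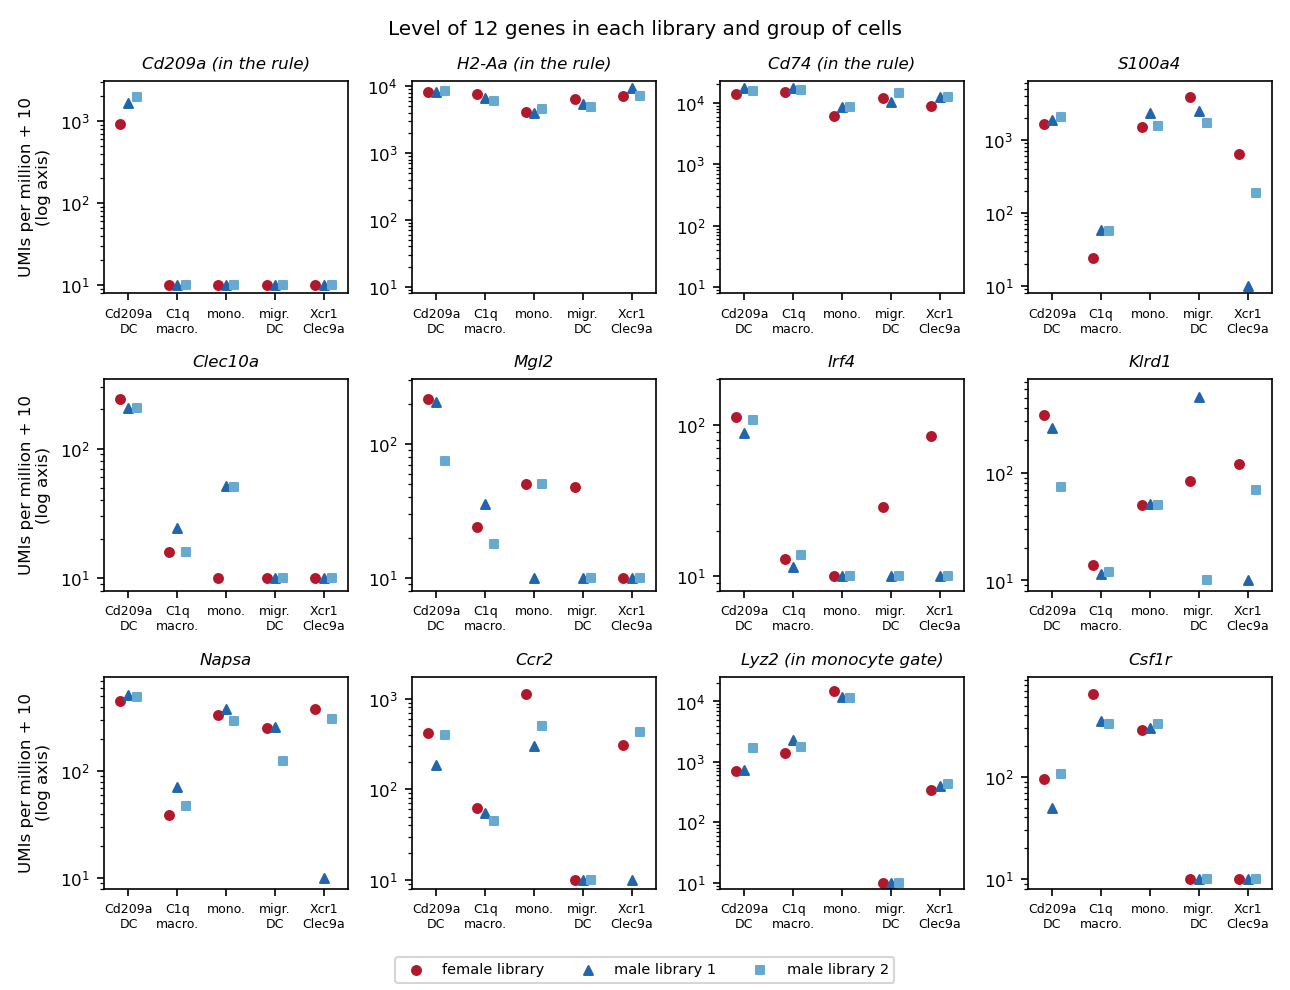
Level of 12 genes in CPM (outside tear-product genes), plus 10, on a log axis, in the 3 libraries (symbols) and 5 kinds of cells (Cd209a dendritic cells, C1q macrophages, monocytes, migratory dendritic cells and *Xcr1* or *Clec9a* cells). *S100a4* lies between 1681 and 2035 (before the 10 is added) in all 3 libraries of Cd209a dendritic cells and at 49.5 or less in C1q macrophages, while *H2-Aa* and *Cd74*, which the rule used, lie close together in both.

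Against C1q macrophages, 15 of 19 tested genes of the S100 and cytoskeleton list, 8 of 13 of the type 2 dendritic cell list and 4 of 6 of the MHC class II loading list were higher in Cd209a dendritic cells. All 19 tested macrophage genes, 21 of 22 lysosomal, 9 of 14 chemokine and 9 of 15 interferon-stimulated genes were lower. Of 3645 genes tested, 201 were called higher (5.51%) and 373 lower (10.2%), and these shares are the background against which the lists below are read. The lists were chosen with earlier results of these data known, so their counts describe them and are no independent evidence. Scaling by total UMIs instead of TMM gave 276 and 335. Without the female library, the deepest, the counts were 109 and 218. Free RNA was estimated to make up 48.9%, 59.8% and 66.6% of the UMIs of the chosen cells and 38.9%, 59.9% and 67.3% of those of C1q macrophages, and 94 and 236 genes were called after its subtraction. The estimate scales pooled tear-product UMIs, which in the female chosen cells include the barcode of 30222 UMIs described above. Their pooled share was 35.6% and their median 21.9%, against 28.3% and 23.5% in female C1q macrophages.

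The S100, annexin and cytoskeleton list (22 genes, 19 tested) had 15 genes called higher and 3 lower, with a median log2 fold change of 2.05 against -0.08 over all genes tested. *S100a4* had 1681, 1851 and 2035 CPM in Cd209a dendritic cells, and 14.4, 49.5 and 46.9 in C1q macrophages. The groups did not overlap, and the log2 fold change was 5.75 ± 0.26 (adjusted p = 8.44e-27, edgeR). *S100a6*, of the same calcium-binding family, had 1457, 1617 and 1776 CPM against 54.7, 115 and 203, a log2 fold change of 3.75 ± 0.23. *S100a10*, the partner of annexin A2 at the membrane, was higher by 3.61 ± 0.29 and *S100a11* by 2.88 ± 0.23. *Lsp1*, a leukocyte F-actin-binding protein gene, had 1250, 955 and 1324 CPM against 149, 101 and 76.2. *Vim* and *Crip1* were also called higher, by 2.05 ± 0.22 and 2.66 ± 0.21, as was *Ahnak*, a giant scaffold protein gene, by 3.02 ± 0.34. *Tmsb10*, an actin-sequestering thymosin gene outside the list, was higher by 2.96 ± 0.19. The 3 genes of the list called lower were *Anxa3*, *Anxa5* and *Lgals3*.

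The type 2 dendritic cell list (21 genes, 13 tested) had 8 genes called higher and 0 lower (median log2 fold change 1.51), while 8 of its genes were too low to test. *Clec10a*, a galactose-binding lectin gene used as a type 2 marker, had 233, 195 and 194 CPM in Cd209a dendritic cells and 5.91, 14.4 and 5.86 in C1q macrophages, with UMIs in 11, 9 and 3 cells. The log2 fold change was 4.64 ± 0.44 (adjusted p = 6.12e-13, edgeR). *Mgl2*, its neighbour and close relative, had 207, 195 and 64.6 against 14.1, 25.6 and 7.82, and a log2 fold change of 3.32 ± 0.44. *Irf4*, the factor on which type 2 cells depend, had 12, 4 and 3 UMIs in the chosen cells, or 103, 77.9 and 96.9 CPM against 3.08, 1.60 and 3.91 (log2 fold change 4.81 ± 0.58, adjusted p = 8.79e-10, edgeR). *Klf4*, another of these factors, was higher by 1.62 ± 0.32 and *Tnip3*, an inhibitor of NF-κB signalling, by 1.60 ± 0.24. *Zeb2*, the third of these factors and in the transcription factor list, was at 345, 195 and 452 CPM against 441, 529 and 467 and was called lower (-0.76 ± 0.25, adjusted p = 0.0241, edgeR), a call that was lost without male library 1 (-0.51, adjusted p = 0.489, edgeR). Over all alternatives the adjusted p of *Zeb2* ran from 0.00848 to 0.489 (edgeR, and DESeq2 for 1 alternative). *Cd7*, an immunoglobulin-family receptor gene, had 24, 3 and 2 UMIs in the chosen cells and 6, 0 and 0 in the far larger sums of macrophages. *Itgam*, the CD11b gene, passed the test (1.40 ± 0.50, adjusted p = 0.0456, edgeR) but was higher in 2 of 3 libraries, and *Sirpa* did not pass (-0.19 ± 0.31). *Itgax*, the CD11c gene, did not pass either (-0.47 ± 0.37).

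*Mgl2* and *Clec10a* marked few of the chosen cells at this depth. They were found in 21 and 23 of 126 cells and together in 5. *Cd209d* was in 9 cells, of which 1 also had *Mgl2*. *Cd209d* had 129, 39.0 and 64.6 CPM in Cd209a dendritic cells and was at 0 in C1q macrophages of all libraries, so that it was at least 161-fold higher, set against 3 UMIs over the group of macrophages. Thinned to 500 UMIs outside tear products per cell, *Mgl2* was found in 17.6%, 11.5% and 2.86% of the chosen cells (32.4%, 14.8% and 5.26% unthinned) and in 0.574%, 1.06% and 0.204% of C1q macrophages. *S100a4* was found in 52.9%, 69.2% and 60.0% of thinned chosen cells (91.2%, 81.5% and 65.8% unthinned) against 0.790%, 2.11% and 1.43% of thinned C1q macrophages. Thinning left out 0, 2 and 3 of the chosen cells as too shallow, and 6, 38 and 44 macrophages.

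Among the type 1 genes (11, of which 6 were tested) 2 were called higher and 2 lower. *Irf8* had a log2 fold change of -1.99 ± 0.37, with 94.8, 58.4 and 32.3 CPM against 307, 208 and 172, and *Cadm1*, an adhesion molecule gene, was lower as well. *Naaa*, a lysosomal amidase gene, and *Wdfy4*, which serves cross-presentation, were higher by 2.20 ± 0.56 and 1.92 ± 0.50. Of 10 genes shared by conventional dendritic cells 4 could be tested, and 2 were called, both higher: *Napsa*, with 440, 507 and 484 CPM against 28.8, 60.7 and 37.1 (log2 fold change 3.40 ± 0.30, adjusted p = 2.13e-14, edgeR), and *Plbd1*, a phospholipase-like gene (1.44 ± 0.26).

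Of the 6 tested genes that serve MHC class II and were not used to choose cells, 4 were higher, *Ctss* was lower and *Ciita*, the class II transactivator gene, did not pass (0.54 ± 0.39, adjusted p = 0.426, edgeR). *H2-Aa* had 8084, 8085 and 8366 CPM in Cd209a dendritic cells and 7680, 6674 and 5992 in C1q macrophages, and *Cd74*, the invariant chain gene, 13729, 17397 and 15827 against 15049, 17605 and 16291. These values are a description, since both kinds of cells had to pass the same limit. Outside the rule, *H2-DMb2*, a chain of the peptide exchanger H2-M, had 16, 5 and 3 UMIs, or 138, 97.4 and 96.9 CPM against 2.31, 3.19 and 3.91, a log2 fold change of 5.30 ± 0.56 (adjusted p = 1.29e-11, edgeR). *H2-DMa*, the partner chain, had 957, 916 and 840 against 447, 339 and 287 (1.12 ± 0.21), and *Ifi30*, a lysosomal thiol reductase that opens antigens for cleavage, 1086, 1149 and 1357 against 190, 361 and 373 (1.84 ± 0.21). *Ctss*, the cathepsin that trims the invariant chain, was lower in all 3 libraries, with a log2 fold change of -1.70 ± 0.18. *H2-DMb2* and *H2-DMb1* are near copies, so the division of reads between them is uncertain.

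**Figure D3:**
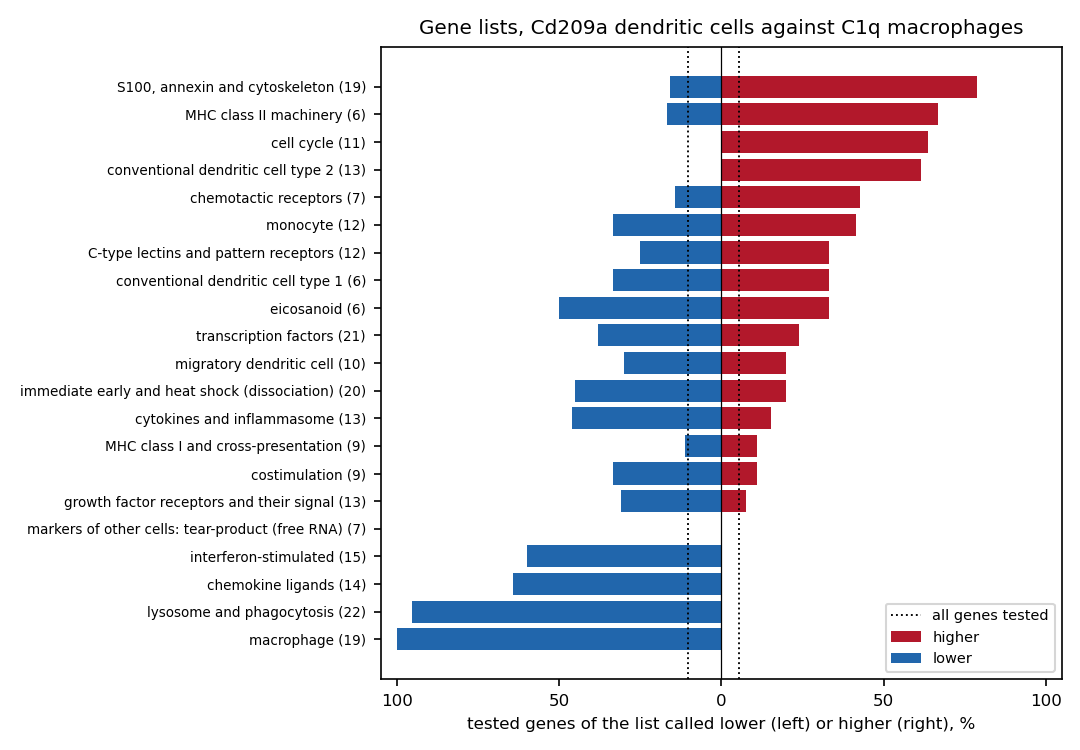
For each gene list with at least 5 tested genes (number tested in brackets), the bars give the percentage of tested genes called higher (right) or lower (left) in Cd209a dendritic cells than in C1q macrophages, and the dotted lines give the percentages over all genes tested, 5.51% and 10.2%. The S100, annexin and cytoskeleton list extends farthest to the right and the macrophage and lysosome lists farthest to the left.

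The macrophage list (23 genes, 3 of them used for choosing macrophages) had 19 tested genes, all called lower, with a median log2 fold change of -3.50. That list describes what the C1q limit selected and is a check on the comparison. *Apoe* had 522, 2 and 11 UMIs, but 427 of the female UMIs lay in 1 cell. Without the cells that had more than 1 C1q UMI, its log2 fold change went from -4.69 to -9.02. *Csf1r*, the receptor for macrophage colony-stimulating factor, was lower, with a log2 fold change of -2.91 ± 0.34.

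The genes named by the fixed rule as lowest all had 0 UMIs in the chosen cells. *Fcgr4*, an Fc receptor gene, had 716, 80 and 61 UMIs in C1q macrophages and was at least 11.3-fold lower in the chosen cells, set against 3 UMIs over the group. *Plau*, the urokinase gene, was at least 9.13-fold lower, *Lpl*, the lipoprotein lipase gene, at least 8.76-fold lower, *Olfml3* at least 7.17-fold lower and the collagenase gene *Mmp13* at least 4.97-fold lower. *Tnfsf13b*, *Pla2g15*, *Itga9*, *Dtx4*, *Apbb2*, *Ctla2b* and *Hebp1* were also at 0 in the chosen cells. Of these 12 genes, the calls of *Tnfsf13b*, *Itga9*, *Dtx4*, *Apbb2*, *Ctla2b* and *Hebp1* did not remain without the female library.

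Lysosomal and phagocytic genes were lower: 21 of 22 tested were called lower and 0 higher (25 in the list, median log2 fold change -1.88). *Ctsd*, the cathepsin D gene, had 121, 19.5 and 96.9 CPM against 686, 1183 and 1309, and *Lgmn*, the legumain gene, 51.7, 97.4 and 0 against 675, 650 and 719. *Trem2*, a lipid-sensing receptor gene, had 6, 0 and 0 UMIs. Several genes of this list are also macrophage genes.

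Chemokine genes were lower (9 of 14 tested called lower, 0 higher, of 22 in the list). *Cxcl2*, a neutrophil attractant gene, had 319, 214 and 904 CPM against 3346, 9770 and 7295 (log2 fold change -4.04 ± 0.23), *Cxcl10* 293, 97.4 and 194 against 2321, 2161 and 1939 (-3.58 ± 0.23), and *Ccl12* 1 UMI in all. Of the interferon-stimulated genes 9 of 15 tested were called lower and 0 higher, with *Isg15* at 86.2, 58.4 and 517 CPM against 791, 922 and 997. Cytokine genes went both ways. *Tnf* was lower (log2 fold change -2.95 ± 0.22) and *Il1a* had 0, 0 and 3 UMIs, whereas *Il1b* had 2060, 5611 and 2972 CPM against 994, 2595 and 2206 and was higher by 0.67 ± 0.17 (adjusted p = 0.00177, edgeR). The decoy receptor gene *Il1r2* was higher by 3.94 ± 0.43, with 112, 370 and 258 CPM against 7.96, 17.6 and 11.7. In the list of 22 genes, 13 were tested, 2 were called higher and 6 lower.

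Immediate early and heat shock genes, which respond to tissue dissociation, also differed between the 2 kinds of cells (4 of 20 called higher, 9 lower, median log2 fold change -0.39). *Nr4a1* was higher by 1.23 ± 0.26 and *Egr1* was called lower. *Nr4a2*, a related nuclear receptor gene, had 138, 487 and 323 CPM against 9.50, 24.0 and 15.6 (3.93 ± 0.39) and *Nr4a3* 276, 273 and 291 against 29.5, 60.7 and 68.4 (2.45 ± 0.32). All cells of a library went through the same enzyme digestion, and the part of dissociation in these values was not tested. Among 21 tested transcription factor genes 5 were called higher, *Irf4*, *Nr4a3*, *Klf4*, *Nr4a1* and *Etv3*, and 8 lower, among them *Id2*, *Cebpb*, *Irf8* and *Zeb2*.

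Receptors for attractants went with the chosen cells. *Ltb4r1*, the leukotriene B4 receptor gene, had 14, 8 and 3 UMIs, or 121, 156 and 96.9 CPM against 1.54, 0 and 0, and a log2 fold change of 6.42 ± 0.61 (adjusted p = 4.00e-13, edgeR). *Ccr2* had 405, 175 and 388 CPM against 51.6, 44.7 and 35.2 (2.65 ± 0.32) and *P2ry10*, a lysophospholipid receptor gene, was higher by 6.03 ± 0.72, while *Cx3cr1* was lower by the same test. *Alox5ap*, which passes arachidonic acid to 5-lipoxygenase, was higher by 1.59 ± 0.22, and *Ptgs2*, the inducible cyclooxygenase gene, by 1.75 ± 0.27. *Hpgds*, a prostaglandin D synthase gene, had 3, 0 and 1 UMIs. Of the 6 tested genes of the eicosanoid list, 2 were called higher (*Alox5ap* and *Ptgs2*) and 3 lower (*Hpgds*, *Pla2g7* and *Hpgd*), *Hpgd* being lower in 2 of 3 libraries. *Tnfsf9*, the ligand gene of the costimulatory receptor 4-1BB, had 689, 448 and 904 CPM against 89.4, 179 and 156 (2.15 ± 0.25). It was the 1 gene called higher of the 9 tested in the costimulation list, and 3 were called lower. *Cd274*, the PD-L1 gene, had 0, 0 and 0 UMIs in the chosen cells and 102, 36 and 26 in C1q macrophages (adjusted p = 0.00684, edgeR), and this call was lost without the female library and without male library 1. *Cd86* and *Cd83* were called lower by small amounts that did not remain in most alternatives.

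Some genes named among the largest changes are known from other cells. *Klrd1*, which encodes the CD94 chain of natural killer receptors, had 39, 13 and 2 UMIs, in 22, 10 and 2 chosen cells, or 336, 253 and 64.6 CPM against 3.85, 1.60 and 1.95 (log2 fold change 6.23 ± 0.47, adjusted p = 5.38e-17, edgeR). *Nkg7*, a granule gene of natural killer and cytotoxic T cells, was at 0 in the chosen cells. *Klrd1* was not particular to the chosen cells. It was found in 23.5%, 40% and 0% of the few migratory dendritic cells, against 64.7%, 18.5% and 5.26% of the chosen cells. It was not among the genes tested between these 2 kinds of cells. *Plac8* and *Ifitm2*, genes of monocytes and interferon responses, were higher by 5.92 ± 0.38 and 3.56 ± 0.21, *Plac8* with 534, 331 and 775 CPM against 2.57, 17.6 and 17.6. Of the 20 genes of the monocyte list, 12 were tested, 5 were called higher (*Plac8*, *Ccr2*, *Ms4a4c*, *Ifitm3* and *Ly6c2*) and 4 lower (*C5ar1*, *Fcgr1*, *Cd14* and *Lyz2*).

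Dividing cells were few. At least 3 of 10 cell cycle genes were found together in 5 of 34, 2 of 54 and 1 of 38 chosen cells, and in 30 of 1399, 15 of 606 and 11 of 535 C1q macrophages. Of the 11 tested cycle genes 7 were called higher and 0 lower, but calls were lost without the female library. *Ube2c*, *Pclaf*, *Stmn1* and *Mki67* did not pass without it. *Stmn1*, a tubulin-binding gene of dividing cells, had a log2 fold change of 1.32 ± 0.34 (adjusted p = 0.00249, edgeR) with it and 0.48 (adjusted p = 0.68, edgeR) without it. In the female library, 65 of 73 UMIs of the 10 genes lay in those 5 cells.

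Against monocytes, 14 of 15 tested genes of the S100, annexin and cytoskeleton list did not pass the test. Of 465 genes tested 20 were called higher (4.3%) and 40 lower (8.6%). *S100a4* had 1681, 1851 and 2035 CPM in Cd209a dendritic cells and 1486, 2325 and 1576 in monocytes, overlapping values with a log2 fold change of 0.03 ± 0.21 (adjusted p = 0.95, edgeR). In that list 0 genes were called higher and 1, *Lgals3*, lower. *Napsa* was at 440, 507 and 484 against 321, 374 and 283 and did not pass (0.51 ± 0.33, adjusted p = 0.34, edgeR). Most type 2 genes were too low in the small monocyte sums to be tested. *Clec10a* had 0, 1 and 1 UMIs in monocytes and *Klrd1* 1, 1 and 1.

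Of 7 tested transcription factor genes 0 were called higher and 2 lower, *Cebpb* and *Zeb2*. *Cebpb*, the factor that rises in monocytes and macrophages under inflammation, had 34.5, 156 and 161 CPM in Cd209a dendritic cells and 1607, 1826 and 2021 in monocytes. The groups lay far apart (log2 fold change -4.22 ± 0.36, adjusted p = 3.15e-05, edgeR). *Ctsb*, the cathepsin B gene, had 405, 117 and 129 against 1607, 872 and 1091 (-2.40 ± 0.31), *Psap* 939, 507 and 646 against 2973, 1328 and 1536 (-1.49 ± 0.22), and *Npc2*, a lysosomal sterol carrier gene, had a log2 fold change of -1.78 ± 0.27. In the lysosome list 5 of 7 tested genes were lower and 0 higher. *Ifi27l2a*, *Cxcl2*, *Prdx5*, *Cstb*, *Slfn2*, *Ier3* and *Ms4a4c* were also called lower. *Il1b* had 2060, 5611 and 2972 CPM against 603, 2740 and 1779 and was called higher (1.09 ± 0.21, adjusted p = 0.0113, edgeR), as were *Tnip3*, *Cd83*, *Dennd4a*, *Tubb5* and *H2afy*.

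These calls rest on 10 to 31 monocytes per library. Some of these monocytes clustered with C1q macrophages, as given further on, and their part in the genes called lower was not tested. Without the library as a block, 0 genes were called higher and 1 lower, and after subtraction of free RNA 0 and 0 (49 and 50 at an unadjusted p under 0.05, edgeR), while DESeq2 called 0 and 8. *Plac8*, *Ly6c2* and *Lyz2*, used to choose monocytes, were at 3736, 3238 and 2547, at 2089, 2034 and 2789, and at 14624, 11747 and 11318 CPM there, and in the chosen cells at 534, 331 and 775, at 25.9, 77.9 and 161, and at 707, 721 and 1712.

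Against migratory dendritic cells, which had *Fscn1* and *Ccr7*, Cd209a dendritic cells were lower in 6 of the 7 migratory genes that could be tested and higher in 2 of 4 tested MHC class II loading genes. Of 454 genes tested 25 were called higher (5.51%) and 29 lower (6.39%). The other 13 of the 20 migratory genes were used to choose cells or too low to test, and 0 were called higher. Of the type 2 dendritic cell list 4 genes could be tested, and 0 were called higher and 2 lower. These were *Tmem176a* (-1.75 ± 0.40) and *Syngr2* (-1.40 ± 0.38), and neither call held under every alternative. *Syngr2* had been called higher against C1q macrophages (1.51 ± 0.27). *Ccl5*, a T cell attractant gene, had 86.2, 77.9 and 64.6 CPM against 3999, 3971 and 4038 (log2 fold change -5.60 ± 0.29, adjusted p = 1.23e-05, edgeR). *Ccl22*, the ligand of CCR4, had 34.5, 77.9 and 64.6 against 1831, 1737 and 1038, and *Tmem123*, a surface mucin-like gene of mature dendritic cells, 34.5, 39.0 and 32.3 against 1794, 1489 and 1269. *Fabp5*, a fatty acid carrier gene, had 25.9, 77.9 and 64.6 against 3681, 3227 and 4499 (-6.21 ± 0.39). *Cd63*, *Samsn1*, *Psme2*, *Epsti1*, *Tbc1d4*, *Basp1*, *Bcl2a1b* and *Marcksl1* were called lower by smaller amounts. *Cd83*, often used as a maturation marker, did not pass (-0.41 ± 0.36).

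Higher were *Lyz2*, the lysozyme gene, and *Ms4a6c*, with 82, 37 and 53 and with 52, 21 and 33 UMIs in Cd209a dendritic cells and 0 in all migratory dendritic cells. They were at least 19.1-fold and 11.8-fold higher, set against 3 UMIs over that group. *H2-DMa* had 957, 916 and 840 CPM against 74.7, 0 and 0 (3.96 ± 0.62, adjusted p = 0.00575, edgeR) and *H2-DMb1* 638, 682 and 517 against 93.4, 0 and 0 (adjusted p = 0.0209, edgeR). *Alox5ap* had 664, 818 and 775 against 18.7, 0 and 0, a log2 fold change of 5.28 ± 0.79. *Ccl4*, a macrophage inflammatory protein gene, had 4370, 3176 and 4457 against 542, 745 and 692 (2.77 ± 0.24), and *Il1b* 2060, 5611 and 2972 against 262, 2234 and 0 (2.72 ± 0.48). *Plac8*, *Fxyd5*, *Tnfsf9*, *Nfkbiz* and *H2afy* were called higher too. *S100a4* did not pass the test (-0.62 ± 0.29, adjusted p = 0.193, edgeR), with 3924, 2482 and 1730 CPM in migratory dendritic cells. *Ccr2* had 47, 9 and 12 UMIs in the chosen cells and 0 in migratory dendritic cells, and was too low to test.

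The sums of migratory dendritic cells were small, 53517, 4029 and 8668 UMIs outside tear products. Free RNA was estimated at 38.3%, 65.8% and 89.0% of their UMIs, and in male library 2 a single barcode, scored as a doublet, held 40.5% of the UMIs of the group. With doublets left out, 44 genes were called higher and 48 lower. Genes called lower numbered 20 without the female library, 45 without male library 1 and 71 without male library 2, and 24, 31 and 21 were called higher. After subtraction of free RNA 5 were called higher and 11 lower. *Fabp5*, *Ccl5*, *Tmem123*, *Ccl22*, *Lyz2*, *Alox5ap*, *H2-DMa*, *Fxyd5* and *Ccl4* were called in the same direction under every alternative that could be computed for them.

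**Figure D4:**
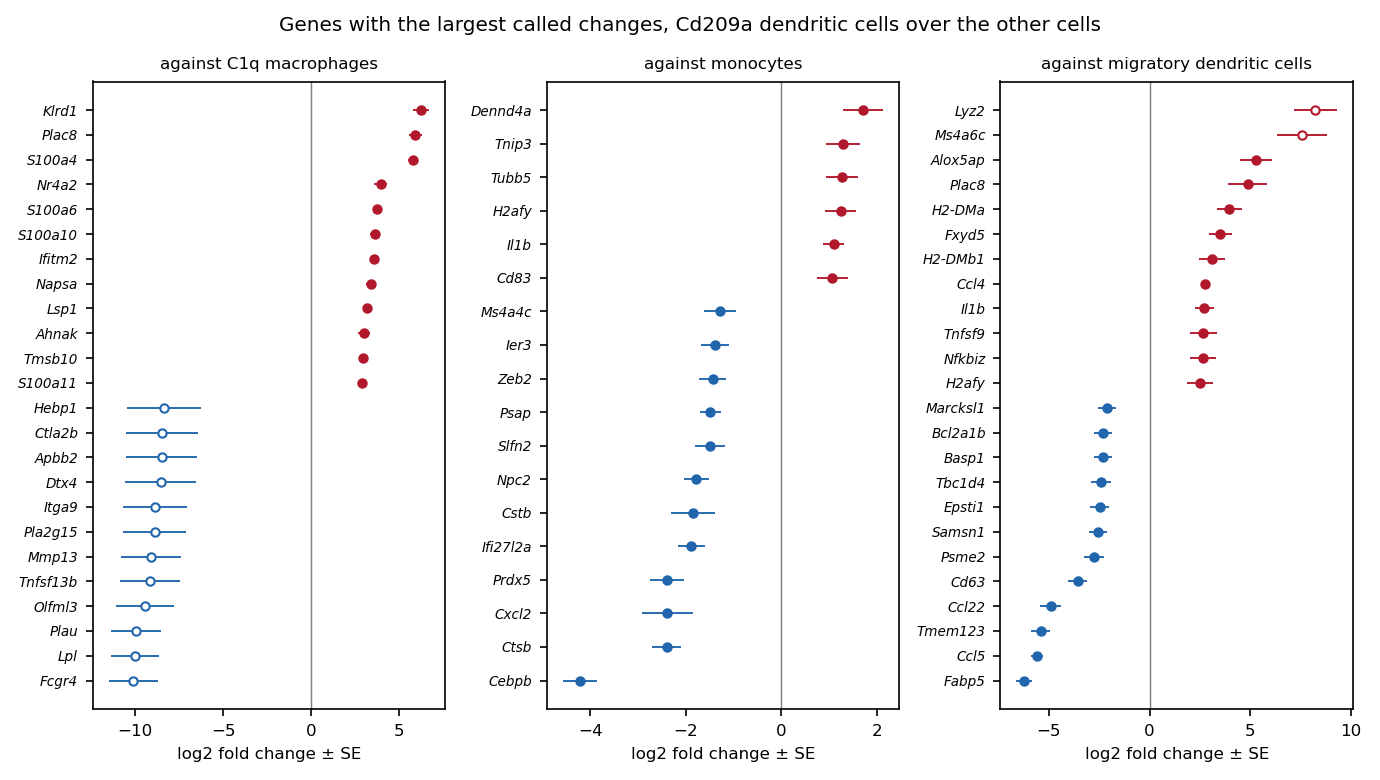
Log2 fold change ± standard error (worked out from the edgeR F statistic) of the genes named by rule for Cd209a dendritic cells over C1q macrophages, monocytes and migratory dendritic cells. Open points are genes with 0 UMIs in either group, whose fitted value is no bound, such as *Fcgr4* and *Lyz2*; the called differences from monocytes are smaller, from -4.22 for *Cebpb* to 1.71 for *Dennd4a*.

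For clustering, cells were taken that had at least 5 MHC class II UMIs or were chosen by the limits above. Cd209a dendritic cells mostly lay together when these were clustered in each library without the genes of the rule and of the other limits. The cells clustered were not myeloid alone. Some clusters were led by genes of endothelium (*Flt1*, *Plvap*), of myoepithelial cells (*Acta2*, *Krt5*) or of fibroblasts (*Dcn*, *Col3a1*). A single cluster in each library held 28 of 34 (82.4%), 47 of 54 (87.0%) and 22 of 38 (57.9%) of the cells. That cluster was led by *S100a4*, *S100a6*, *Crip1* and *Retnla* in the female library, by *S100a6*, *Ifitm2*, *Tmsb10* and *S100a4* in male library 1 and by *Tmsb10*, *S100a4*, *Lsp1* and *Ifitm2* in male library 2. The chosen cells made up 34.6%, 32.6% and 17.9% of it, beside 31, 69 and 72 cells otherwise like them without a *Cd209a* UMI and 6, 17 and 3 monocytes. In male library 2 it also held 13 of the 14 *Xcr1* or *Clec9a* cells. Clusters led by cell cycle genes held 4 chosen cells each in the female library and male library 1. In male library 2 a cluster led by *Ifitm3*, *Igkc*, *Ifi27l2a*, *Jchain* and *Ms4a4c*, *Igkc* and *Jchain* being antibody genes of plasma cells, with 21 of its 31 monocytes, held 11 chosen cells. Of the 10 female monocytes, 4 lay in a cluster led by *Ctsd*, *Lgals3*, *Lpl*, *Cstb* and *Ctsb*, with 76 C1q macrophages among its 82 cells. In male library 2, 7 monocytes lay in a cluster led by *Ctsd*, *Ccl8*, *Ctsb* and *Lpl*, with 135 C1q macrophages among its 161 cells. These are descriptions, since the leading genes come from the cells clustered.

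**Figure D5:**
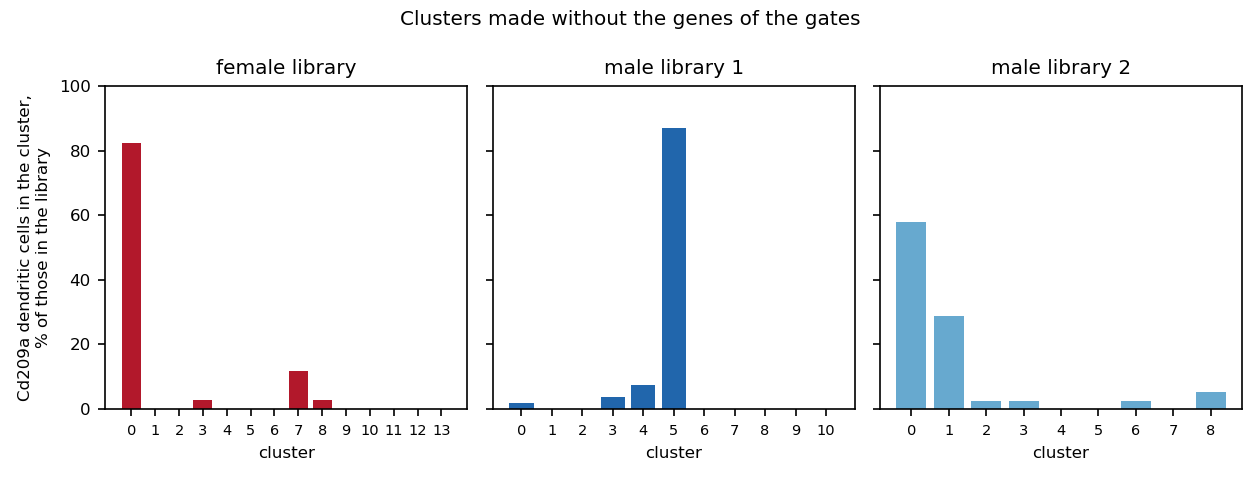
Percentage of the Cd209a dendritic cells of each library that fell in each cluster of the cells clustered, with cluster numbers assigned separately in each library. The tallest bars stand at 82.4%, 87.0% and 57.9%, and in male library 2 another cluster holds 28.9%.

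Within the chosen cells, inflammatory *Il1b* was uneven from cell to cell. It was found in 17 of 34, 40 of 54 and 20 of 38 cells, with up to 88 UMIs in a cell, and *Tnip3* in 19, 22 and 12 cells. They were found together in 14, 19 and 8 cells. *Napsa* and *Il1b* were found together in 11, 14 and 8 cells. *Flt3* was found with *Ccr2* in 7 of its 8 cells. *Lyz2* and *Plac8*, both monocyte genes, were found in 55 and 37 of 126 cells, and together in 16.

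Between the female library and the male libraries no test was possible, and the chosen cells were compared by values alone. Of 1215 genes with at least 20 UMIs, 16 (1.32%) were at least 4-fold higher in the female library than in both male libraries and 19 (1.56%) at least 4-fold lower. Most were secreted products of gland cells: *Bpifa2* had 333, 0 and 0 UMIs, *Scgb1b3* 0, 934 and 376, and *Mup4* 56, 787 and 511. The same genes had 18072, 0 and 0, then 54.1, 43997 and 33668, and then 2164, 57966 and 54764 CPM in the free RNA of these libraries. The female side also held *Apoe* and *C1qb*, with most UMIs in 1 or 2 cells, and *Xist*. Of the genes that are not gland products, *Cfp*, the properdin gene, had 26, 1 and 0 UMIs in 13, 1 and 0 cells, *Trf*, the transferrin gene, 29, 2 and 0, *Selenop* 19, 1 and 1, *Ankrd44* 23, 1 and 1, and *Atrx* 23, 2 and 1. *Cfp* and *Trf* had 0 UMIs in the female free RNA. *Ccl7* had 0, 22 and 1 UMIs, of which the 22 lay in 2 cells.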

How the data were processed

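Single cells of mouse LG were measured with 10x Genomics in 3 libraries. The authors deposited whole UMI counts, from Cell Ranger 6.1.2 and mm10 in the submitters' processing notes, and their later correction for free RNA and removal of doublets are not in these files. The annotation release is not given in the sources used here. Barcodes were kept by the limits of the study (over 500 UMIs, over 200 genes, under 15% mitochondrial UMIs). Total UMIs per library and the totals of each kind of cell set the precision.

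UMIs were summed per library and kind of cell and tested with edgeR 4.0.16 in R 4.3.3 (filterByExpr, TMM, glmQLFit, glmQLFTest, library as block, Benjamini-Hochberg over all genes tested). The block joins cells of 1 suspension and needs no check of pairing. DESeq2 1.42.0, total UMIs, no filter, no block, each library left out, subtraction of free RNA, other limits on cells and doublet scores (scanpy 1.11.5, 0.8% per 1000 barcodes) were alternatives; tear-product genes stayed in the library sizes of the tests and out of CPM. Monocytes had 0 UMIs of *Siglech*, *Ly6d*, *Ccr9*, *Xcr1*, *Clec9a*, *Nkg7*, *Cd79a* and *Ms4a1*. Free RNA was the profile of barcodes with 10 to 100 UMIs, scaled by tear-product UMIs. On simulated counts, the macrophage test called 48.5% of genes changed 4-fold and 97.5% of those changed 16-fold (3645 genes).

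The members and gene lists were chosen with earlier results of these data known. Named genes were the 12 largest changes in each direction among called genes that moved alike in 3 of 3 libraries with at least 50 UMIs in the higher group, without tear-product, mitochondrial, ribosomal protein, sex-linked and model-named genes, and up to 4 called genes of each list with the genes that define it. Genes named for their levels in the cells (*Nkg7*, *Cd3d*, *Cd79a* and those set apart by sex), and *Zeb2* and *Hpgd* against macrophages, were chosen after their values were seen. Sequences come from RefSeq tables (GRCm38.p6), in which all 4 genes were found by symbol, with starts that differ from the gene intervals except for *Cd209a*. With the library as a block, p-values rest on how far the difference between kinds of cells varied among the 3 pools of animals, after edgeR moderated that spread with the spread of all genes tested. A small p-value therefore does not measure the spread of its own gene among the 3 pools alone. Differences between pools that both kinds of cells share are taken up by the block. The values of 1 gene are not reported here.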

Additional observations from a re-analysis of the deposited data

How the results depend on the processing

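Directions did not reverse for the named genes called in any comparison under the alternatives computed. Against C1q macrophages 62 of 94 named genes were called under every alternative in which they could be tested, against migratory dendritic cells 9 of 34 and against monocytes 0 of 27. An alternative in which a gene was too low to test, or for which DESeq2 gave no adjusted p, was not counted for that gene. Without the female library 88 of the 94 genes had a value. With at least 2 *Cd209a* UMIs, 16 of the 34 against migratory dendritic cells did.

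Genes called higher and lower than in C1q macrophages (201 and 373) numbered 106 and 192 without the library block, 101 and 202 by DESeq2, 94 and 213 among cells with at least 2 *Cd209a* UMIs, 94 and 236 after subtraction of free RNA, and 109 to 201 and 218 to 369 with a library left out. Without a filter on low counts 147 and 479 of 15624 genes were called. Scaling by total UMIs instead of TMM gave a split of 276 and 335, the median over all genes moving from -0.08 to 0.04.

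Against monocytes (20 and 40) they numbered 0 and 1 without the block, 0 and 8 by DESeq2, 0 and 0 after subtraction of free RNA, 0 and 5 with at least 2 *Cd209a* UMIs, 15 and 11 without a filter, 9 and 31 with total UMIs, 9 and 33 in cells over 1000 UMIs, 10 and 39 with at most 1 C1q UMI, 31 and 44 without doublets, 4 and 32 where MHC class II was asked of monocytes too, and 0 to 7 and 18 to 46 with a library left out. At an unadjusted p under 0.05, 46 and 56 genes passed without the block, 8 and 38 by DESeq2, 31 and 47 with at least 2 *Cd209a* UMIs and 22 and 72 without male library 1.

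Against migratory dendritic cells (25 and 29) they numbered 14 and 21 by DESeq2, 12 and 25 over 1000 UMIs, 44 and 48 without doublets, 8 and 11 with at least 2 *Cd209a* UMIs, 5 and 11 after subtraction of free RNA, 18 and 26 without the block, and 21 to 31 and 20 to 71 with a library left out. Scaling by total UMIs moved the median over all genes from 0.08 to 0.26, where the calls came to 22 and 20. The cause of these changes was not tested.

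With at least 2 *Cd209a* UMIs, the shares of kept cells were 0.337%, 0.305% and 0.210%. The other alternatives left each share within its interval. The counts of genes 4-fold apart between the female and male libraries were recomputed under alternatives added after the data were seen and kept within 1.5 times (15 to 17 higher, 18 to 23 lower). Replicate numbers are shared by 1 female and 1 male library only, so they pair no samples.

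Depth was low: 69 of 126 cells had 1 *Cd209a* UMI, and most genes of the lists were too low to test against monocytes and migratory dendritic cells.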

Other observations

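Outside the set of barcodes called as cells, 2902, 1413 and 1901 barcodes passed the same limits of UMIs, genes and mitochondrial share, and 0 of these met the rule for Cd209a dendritic cells.

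Cells with a *Xcr1* or *Clec9a* UMI, the genes of type 1 dendritic cells, numbered 7, 2 and 14. At least 3 of 10 cell cycle genes were found in 3, 0 and 7 of them, against 5 of 34, 2 of 54 and 1 of 38 Cd209a dendritic cells. *S100a4* averaged 270 CPM there and 1855 in Cd209a dendritic cells.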
